A study of Mus musculus with 10 samples.

Results

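The clustered protocadherins are cell-surface adhesion proteins encoded in 3 neighbouring gene clusters, alpha, beta and gamma, on mouse chromosome 18. Every gene in the count table whose symbol begins with Pcdha, Pcdhb or Pcdhg was taken, which gave 59 of 24453 genes, with 15 in the alpha, 22 in the beta and 22 in the gamma cluster. Their reads were compared in intratelencephalic projection neurons (IT-PNs) of 2 kinds, Fezf2+ve and Fezf2-ve, which are cortical neurons whose axons stay within the telencephalon, in 10 RNA-seq libraries. The question was which transcripts differ between these neighbouring cell types of layer 5 in the primary motor cortex (M1).

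All animals were male mice of the (Zfp312-EGFP)CO61GsatMmnc line, hemizygous and on a Swiss Webster background, in which GFP is driven by Fezf2 regulatory elements. A fluorescent retrograde tracer, cholera toxin subunit B (CTB), was injected into the left M1 at postnatal day 23 to 25, and layer 5 of the right M1 was collected at postnatal day 28 to 32. Cells of each animal were sorted by FACS into a gate positive for GFP and CTB, here Fezf2+ve, and a gate positive for CTB alone, here Fezf2-ve, so each of the 5 animals gave 1 library of each type. The mean yield given in the sample records was 11280 Fezf2+ve and 2688 Fezf2-ve cells, and the study's text gives a higher number for Fezf2-ve cells. The GFP gate reads the transgene and not Fezf2 itself, and the Fezf2-ve gate rests on tracer in a GFP-negative cell. Fezf2 had 1 read in the 10 libraries together, in Fezf2+ve 5, so the count table gives no check of the gates by that gene, and the study's RT-PCR for Fezf2 in the sorted cells was not used here.

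Alpha and gamma transcripts each join a variable exon, read from its own promoter, to constant exons at the end of the cluster that all members of the cluster share, whereas beta genes lie within a single exon and share no constant exon. Individual neurons express different combinations of the variable members, and the proteins bind their own kind on neighbouring membranes, which is how neurites of the same neuron recognise and avoid each other. The C-type members at the end of the alpha and gamma clusters are known for broader expression than the other members, and Pcdhac2 for the spacing of serotonergic axons.

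Between 107643 and 203379 reads per library fell on genes in Fezf2+ve IT-PNs (median 118134) and between 89138 and 217738 in Fezf2-ve IT-PNs (median 168711). These totals overlapped between types (p = 0.188, two-sided exact sign-flip test over animals). A floor of 3 reads corresponded to 13.8 CPM (counts scaled by the library's reads on genes) in the deepest library and 33.7 CPM in the shallowest. Copies made by PCR cannot be separated from original molecules in these counts, and the floor reflects counting error alone. The minimum of 10 CPM in at least 2 libraries, used to select genes for testing, was reached with 1 read in Fezf2-ve 2 and with 2 or 3 reads in the other libraries. The ERCC share, reads on spiked-in synthetic RNA as a percent of ERCC and gene reads, was 46.7% in Fezf2+ve 1, above the range of 6.44 to 12.6% in the other Fezf2+ve libraries, and 2.79 to 27.1% in Fezf2-ve libraries.

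The labelled cell type was examined with 8 markers of excitatory neurons, each with reads in at least 1 library. Their summed level was 635, 678, 288, 350 and 88.5 CPM in Fezf2+ve 1 to 5 and 137, 146, 3361, 56.8 and 64.3 CPM in Fezf2-ve 1 to 5. The types overlapped, and Fezf2-ve 3 stood above the rest, with 529 of its reads on Camk2a, the most abundant gene of this list. Of 6 inhibitory neuron markers, Slc32a1, Pvalb and Vip were at 0 in the 10 libraries, and the most abundant, Gad1, had 4 reads, in Fezf2-ve 2. The inhibitory list summed to 0 CPM in Fezf2+ve 1 to 4 and 4.92 CPM in Fezf2+ve 5, and to 0, 44.9, 11.9, 4.73 and 13.8 CPM in Fezf2-ve 1 to 5.

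Microglial markers separated the types. The 12 markers summed to 262, 177, 102, 72.6 and 128 CPM in Fezf2+ve 1 to 5 and to 6872, 5452, 7225, 1845 and 4028 CPM in Fezf2-ve 1 to 5. Every Fezf2-ve library was above every Fezf2+ve library, and the most abundant gene was Ctss, a lysosomal protease, with 372, 91, 196, 92 and 56 reads in Fezf2-ve 1 to 5. All 12 had fitted values lower in Fezf2+ve IT-PNs, 11 with an unadjusted p under 0.05, none passing the adjusted threshold of 0.1 in the blocked edgeR fit described below, 10 passing it with DESeq2 and 11 in edgeR without the block. Whether these reads come from microglia or from the sorted neurons was not tested, nor was their part in the protocadherin values. In such pooled libraries, fewer cells of a type and less RNA per cell cannot be told apart.

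The other marker lists overlapped between types and varied by library. The 8 astrocyte markers summed to 745, 7608, 644, 1682 and 462 CPM in Fezf2+ve 1 to 5 and to 738, 247, 88.9, 3799 and 41.3 CPM in Fezf2-ve 1 to 5, with Slc1a2 most abundant and Gfap at 0. The 6 oligodendrocyte markers summed to 779, 10451, 559, 106 and 354 CPM in Fezf2+ve and to 2025, 617, 391, 114 and 266 CPM in Fezf2-ve libraries 1 to 5. Fezf2+ve 2 was the highest library for both lists. The 5 oligodendrocyte precursor markers, led by Vcan, summed to 2040, 2648, 864, 72.6 and 4666 CPM in Fezf2+ve and to 1423, 348, 948, 114 and 1121 CPM in Fezf2-ve libraries 1 to 5. Endothelial markers (4 genes, led by Flt1) summed to 8.46, 46.4, 59.3, 0 and 44.3 CPM in Fezf2+ve and to 11.9, 22.4, 5.93, 33.1 and 41.3 CPM in Fezf2-ve libraries 1 to 5. No gene of these 4 lists had an unadjusted p under 0.05.

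**Figure D1:**
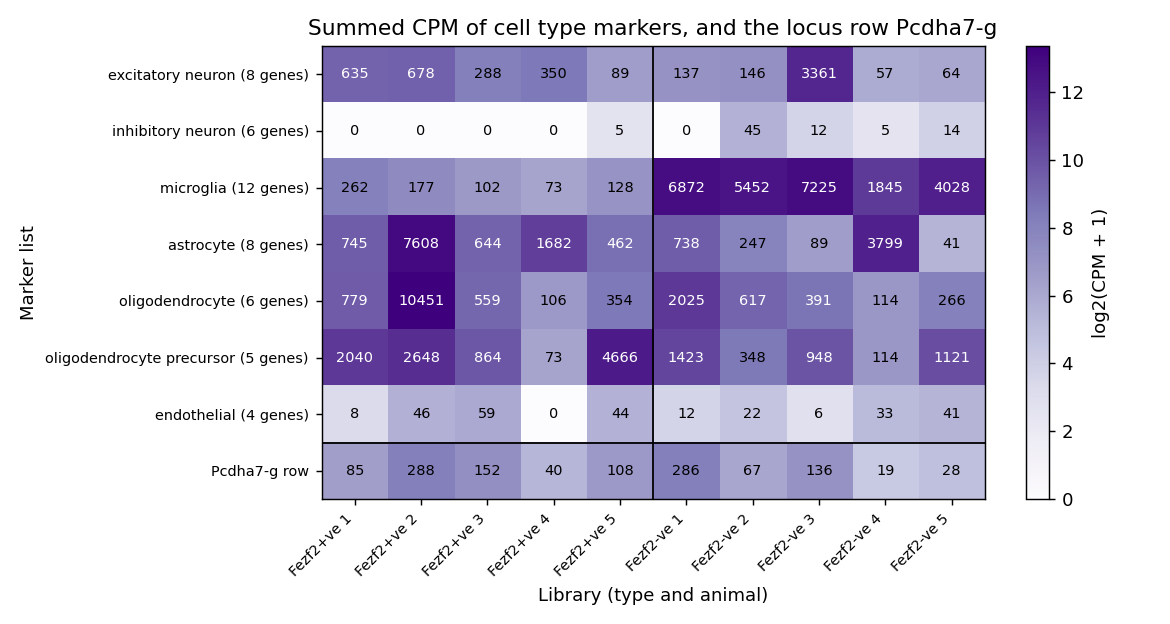
Summed CPM of each cell type marker list in the 10 libraries (columns: type and animal; colour: log2(CPM + 1); printed values: CPM), with the locus-wide row Pcdha7-g beneath. Microglial markers sit at 72.6 to 262 CPM in Fezf2+ve and at 1845 to 7225 CPM in Fezf2-ve libraries, while Pcdha7-g overlaps between types.

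Reads on the clustered protocadherins were few, and they were counted repeatedly. The 59 genes held 1758 counts when summed, but the whole locus held 175 reads once each read was counted a single time. The authors' counting tool assigns a read to every listed gene whose span it overlaps, and the alpha and gamma genes have spans that start at different points and end together. Pcdha1, the alpha gene that starts first, spans chr18:36930285-37187657, and Pcdhga1, the gamma gene that starts first, spans chr18:37661775-37841870 (RefSeq on GRCm38, the assembly that mm10 also names). In 340 comparisons of neighbouring genes within a library, the gene that starts later never had more reads than the gene before it.

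Counting distinct patterns, in which genes with the same count in all 10 libraries are taken as 1, left 16 patterns. The 15 alpha genes had 6 patterns, the 22 gamma genes 8, and the beta cluster 2, from Pcdhb12 and Pcdhb20, while the other 20 beta genes had no read. Pcdha1 to Pcdha3 shared a pattern, as did Pcdha4 to Pcdha7 and Pcdha8 to Pcdha12. In the gamma cluster 6 genes from Pcdhga2 to Pcdhga5 shared a pattern, 5 from Pcdhga7 to Pcdhga9, 4 from Pcdhgb6 to Pcdhga11, and the pairs Pcdhgb8 with Pcdhga12 and Pcdhgc4 with Pcdhgc5. Values given below for 1 gene of a pattern hold for the others of that pattern, and a named gene stands for its nested span, not for a transcript that starts there.

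**Figure D2:**
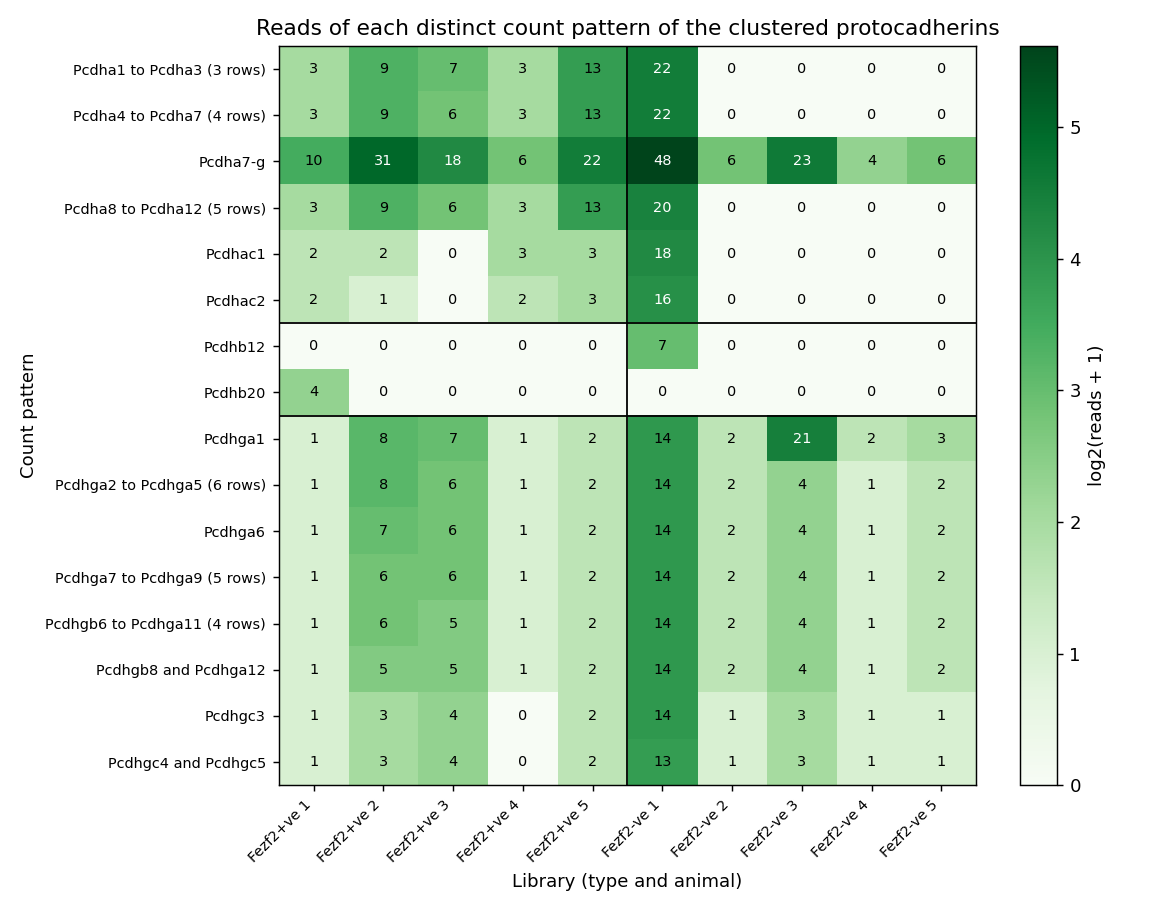
Reads of the 16 distinct count patterns (rows, ordered along each cluster) in the 10 libraries (columns), with colour for log2(reads + 1). The alpha patterns other than Pcdha7-g have 0 reads in Fezf2-ve 2 to 5, and Fezf2-ve 1 has the most reads of 14 of the 16 patterns.

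The row Pcdha7-g covers most of the locus. RefSeq lists it as a synonym of Gm38667, which runs from Pcdha7 through the beta cluster to the end of the gamma cluster (chr18:36973802-37841873). Its reads therefore describe the 3 clusters and the sequence between their genes together, and not an alpha isoform. Pcdha7-g had 10, 31, 18, 6 and 22 reads in Fezf2+ve 1 to 5 and 48, 6, 23, 4 and 6 in Fezf2-ve 1 to 5, or 87 in each type. As a level this was 84.6, 288, 152, 39.6 and 108 CPM in Fezf2+ve and 286, 67.3, 136, 18.9 and 27.6 CPM in Fezf2-ve libraries 1 to 5. The types overlapped, and Fezf2+ve was the higher library in 4 of 5 animals, with animal 1 the reverse. The mean was 135 ± 95.0 CPM (SD, n = 5) in Fezf2+ve and 107 ± 110 CPM (SD, n = 5) in Fezf2-ve IT-PNs, and the log2 fold change of the blocked edgeR fit was 0.77 (SE 1.08, adjusted p = 0.999). Gm37013 and Gm38666, whose symbols lie outside the rule, had the same counts as Pcdha7-g. Slc25a2 and Taf7, unrelated genes that lie between the beta and gamma clusters, had no read, and Diaph1 just beyond the gamma cluster had 2.

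Within the locus, the alpha span from Pcdha1 held 57 reads (32.6%), the gamma span from Pcdhga1 61 (34.9%) and the beta genes 11 (6.29%). The remaining 46 reads (26.3%) fell on Pcdha7-g outside every other clustered gene, with 2, 14, 5, 2 and 7 in Fezf2+ve and 5, 4, 2, 2 and 3 in Fezf2-ve libraries 1 to 5. No library lacked such reads, and Fezf2+ve 2 had the most of them. Other annotated genes lie there, among them the long noncoding RNA genes 4930517L18Rik and 3222401L13Rik, which have no counts of their own. Reads of such genes cannot be separated from protocadherin reads.

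For the test across genes, 7409 genes passed the minimum of 10 CPM in at least 2 libraries, among them the 15 alpha and 22 gamma genes and no beta gene. With edgeR's quasi-likelihood test, blocked by animal and adjusted by Benjamini-Hochberg, 0 of the 37 tested clustered protocadherins passed an adjusted p of 0.1, against 0 of all 7409 genes (0%). At an unadjusted p under 0.05, 8 of the 37 genes, which were 2 distinct patterns, were higher in Fezf2+ve IT-PNs, against 121 of all genes (1.63%), and 0 were lower, against 169 (2.28%). That count of 8 was 0 without any 1 of animals 2 to 5, with other size factors, with library size only, without the filter or without the block. It was 12 without animal 1, with the stricter filter or in DESeq2. Over the 8 combinations of edgeR settings with the block, chosen after seeing the data, it was 3 with library sizes before the filter, 8 with these and robust moderation, and 12 with robust moderation alone or with estimateDisp. With genes of the same counts taken as 1, it was 3 patterns in place of 2. DESeq2 with the same block called 98 genes (1.32%), and edgeR without the block 276 (3.73%), neither with a clustered protocadherin among them. For 36 of the 37 genes DESeq2 gave no adjusted p because of their low mean. The median log2 fold change, Fezf2+ve over Fezf2-ve, was 3.81 over the 15 alpha genes, 0.07 over the 22 gamma genes and 0.15 over the 14 tested patterns, beside -0.16 over all tested genes. Genes of a cluster share reads, so neither the 8 genes nor a cluster's median counts independent results.

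**Figure D3:**
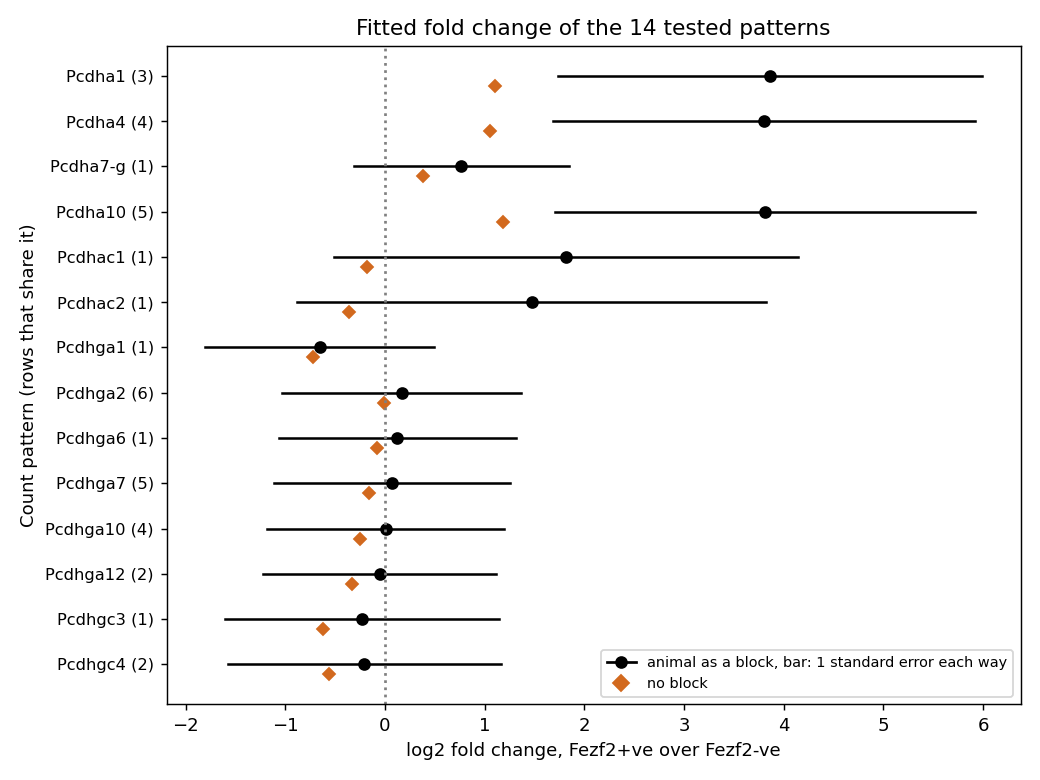
Fitted log2 fold change of the 14 tested patterns (points, animal as a block; bars, 1 standard error each way; diamonds, the fit without the block), with the number of genes that share each pattern in parentheses. The points of the alpha patterns lie above 0, and the diamonds of Pcdhac1 and Pcdhac2 lie below it.

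Genes at the start of the alpha cluster encode the variable alpha proteins. Pcdha1 had 3, 9, 7, 3 and 13 reads in Fezf2+ve 1 to 5 and 22, 0, 0, 0 and 0 reads in Fezf2-ve 1 to 5. The corresponding levels were 25.4, 83.6, 59.3, 19.8 and 63.9 CPM, and 131 CPM in Fezf2-ve 1 with 0 CPM in the other Fezf2-ve libraries. Reads were thus present in 5 of 5 Fezf2+ve libraries and 1 of 5 Fezf2-ve libraries, and that 1 library was the highest of the 10, so the types overlapped. The mean level was 50.4 ± 27.1 CPM (SD, n = 5) against 26.2 ± 58.6 CPM (SD, n = 5), a ratio of 1.92. The blocked edgeR fit, which compares within animals, gave a log2 fold change of 3.86 (SE 2.12, higher in 4 of 5 animals, unadjusted p = 0.0487, Benjamini-Hochberg adjusted p = 0.999). Without the block the edgeR log2 fold change of Pcdha1 was 1.099 (unadjusted p = 0.483). Pcdha4 and Pcdha10 differed from Pcdha1 by 1 and 3 reads in all, with log2 fold changes of 3.80 and 3.81 with the block and 1.06 and 1.19 without it.

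C-type alpha genes begin nearer the end of the cluster. Pcdhac1 had 2, 2, 0, 3 and 3 reads in Fezf2+ve and 18, 0, 0, 0 and 0 in Fezf2-ve libraries 1 to 5. Pcdhac2, whose span includes the constant exons, had 2, 1, 0, 2 and 3 reads in Fezf2+ve and 16, 0, 0, 0 and 0 in Fezf2-ve libraries 1 to 5. Fezf2-ve 1 held most reads of both genes, 64.3% for Pcdhac1 and 66.7% for Pcdhac2, and no other library had over 3 reads of either. The mean of Pcdhac2 was 10.8 ± 6.67 CPM (SD, n = 5) in Fezf2+ve and 19.1 ± 42.6 CPM (SD, n = 5) in Fezf2-ve IT-PNs. Its blocked log2 fold change was 1.47 (SE 2.36, higher in 3 of 5 animals, edgeR adjusted p = 0.999) and that of Pcdhac1 was 1.81 (SE 2.33). Without the block these were -0.36 and -0.18, so the direction of both depended on the block.

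**Figure D4:**
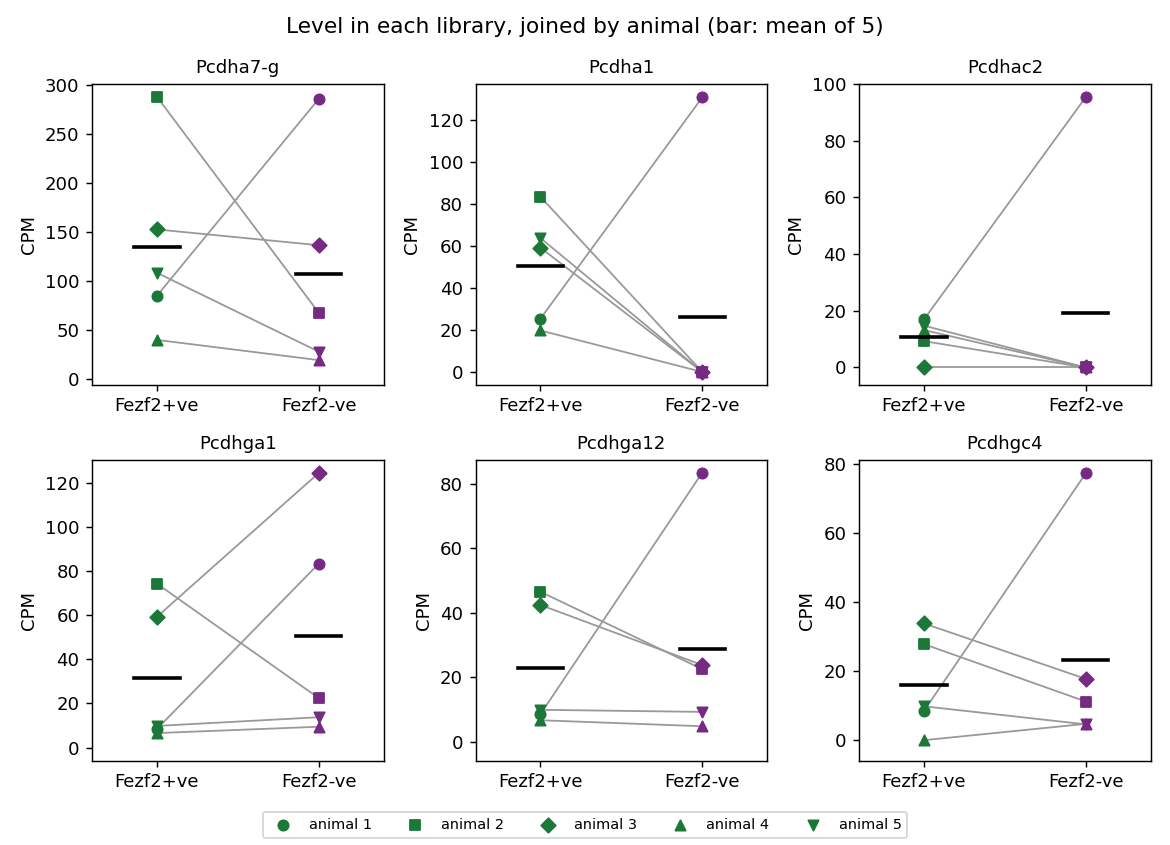
Level (CPM) of 6 clustered protocadherin genes in each Fezf2+ve (left) and Fezf2-ve (right) library, with lines joining the libraries of an animal and horizontal bars at the mean of 5. In animal 1 the line goes up from Fezf2+ve to Fezf2-ve in all 6 panels, whereas for Pcdha1 the lines of the other 4 animals end at 0.

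Taking differences of neighbouring genes placed the alpha reads along the cluster. The 11 stretches from the start of Pcdha1 to the start of Pcdha12 (89.9 kb, 31.6% annotated as exons of alpha genes) held 3 reads. The stretch from the start of Pcdha12 to the start of Pcdhac1 (69.9 kb, 3.60% exon) held 26 reads, with 1, 7, 6, 0 and 10 in Fezf2+ve and 2, 0, 0, 0 and 0 in Fezf2-ve libraries 1 to 5. The last stretch, from the start of Pcdhac2 through the constant exons (44.0 kb, 16.1% exon), held 24 reads, 8 in Fezf2+ve and 16 in Fezf2-ve libraries. Thus 24 of the 35 Fezf2+ve alpha reads lay between Pcdha12 and Pcdhac1, and 16 of the 22 Fezf2-ve reads, from a single library, lay in the last stretch. Positions of reads within a stretch are not given by counts, so exonic and intronic reads cannot be told apart. Nor can reads of antisense genes within these spans, such as Gm10545 over Pcdha10 to Pcdha12 and Gm38097 in Pcdhac2. The transcribed pseudogene Gm19035 (chr18:37079994-37082457) lies within the stretch from Pcdha12 to Pcdhac1, and its reads cannot be separated either. This division was examined after the counts had been seen and was not tested.

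**Figure D5:**
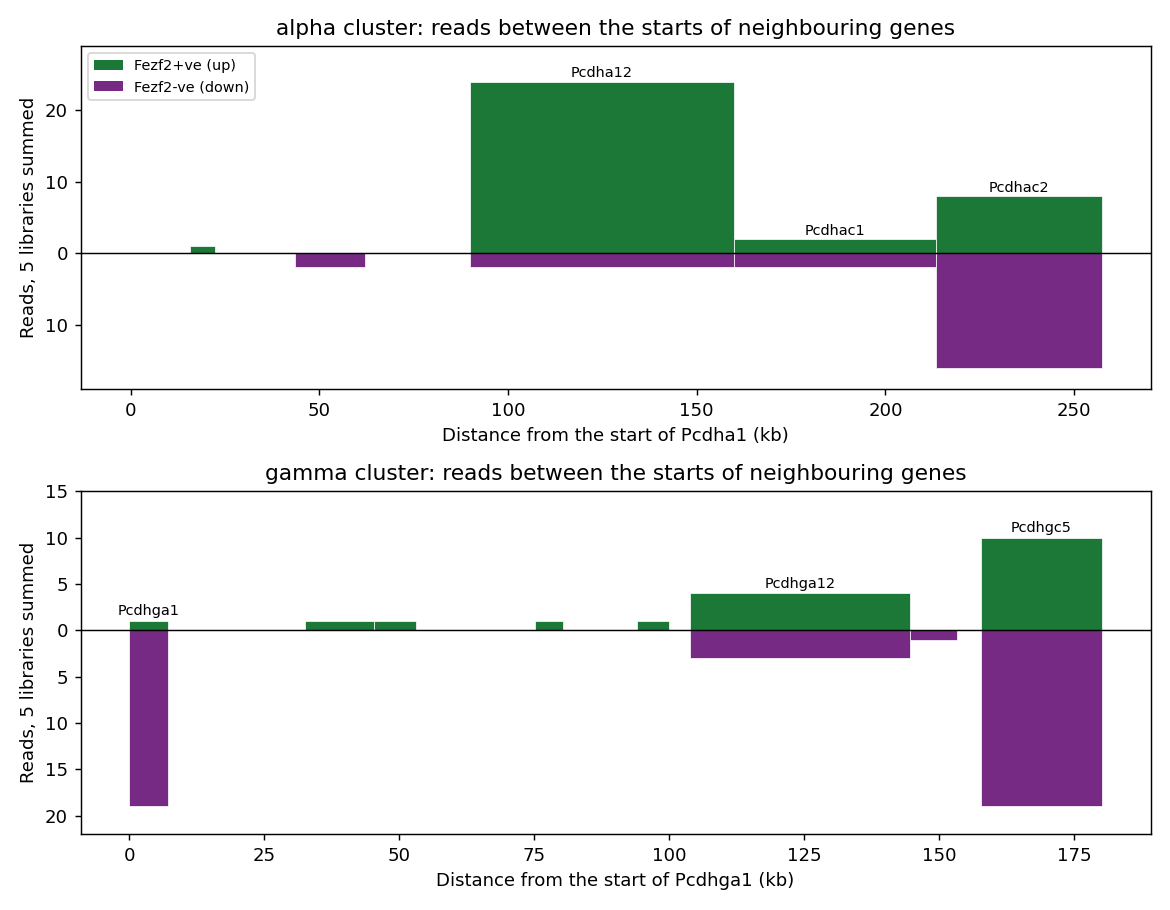
Reads between the starts of neighbouring genes in the alpha and gamma clusters, summed over 5 libraries of each type (up, Fezf2+ve; down, Fezf2-ve), against distance in kb from the first start of the cluster. Bar widths are the lengths of the stretches, so height and not area gives the reads; the tallest bars are the Pcdha12 stretch with 24 Fezf2+ve reads and the first and last gamma stretches with 19 Fezf2-ve reads each.

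Beta genes each carry a complete coding sequence, and their spans do not overlap one another. Pcdhb12 (chr18:37435621-37438654) had 7 reads, all in Fezf2-ve 1, or 41.7 CPM. The antisense gene Gm37446 (chr18:37433412-37437547) covers part of Pcdhb12, so these reads cannot be assigned to a strand or gene. Pcdhb20 (chr18:37504264-37507660) had 4 reads, all in Fezf2+ve 1, or 33.9 CPM. No gene of this cluster had reads in more than 1 library, and a difference between types was not detectable at this depth.

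Spans of the gamma variable genes, which run on through the constant exons, had reads in every library. Pcdhga1 had 1, 8, 7, 1 and 2 reads in Fezf2+ve 1 to 5 and 14, 2, 21, 2 and 3 reads in Fezf2-ve 1 to 5. Its level was 8.46, 74.3, 59.3, 6.60 and 9.83 CPM in Fezf2+ve and 83.4, 22.4, 124, 9.46 and 13.8 CPM in Fezf2-ve libraries 1 to 5. The types overlapped, with Fezf2-ve 3 and Fezf2-ve 1 highest and Fezf2-ve above Fezf2+ve in 4 of 5 animals. The log2 fold change was -0.65 (SE 1.15, edgeR adjusted p = 0.999), from means of 31.7 ± 32.5 and 50.7 ± 50.9 CPM (SD, n = 5 each).

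Past Pcdhga1 the order within animals changed. Pcdhga2 had 1, 8, 6, 1 and 2 reads in Fezf2+ve and 14, 2, 4, 1 and 2 in Fezf2-ve libraries 1 to 5. As a level in CPM, Fezf2+ve was the higher library in 4 of 5 animals. In animals 4 and 5 the reads were equal, so the order there came from library size alone (6.60 against 4.73 and 9.83 against 9.19 CPM). The stretch between the starts of Pcdhga1 and Pcdhga2 (7.15 kb) held 17 of its 20 reads in Fezf2-ve 3, which changed the order in animal 3. The order of levels in animals 4 and 5 changed by 1 read each. This stretch also contains the antisense gene Gm37118. Log2 fold changes from Pcdhga2 to Pcdhga12 ran from 0.17 to -0.05, each smaller than its SE of 1.17 to 1.20. The 17 stretches from the start of Pcdhga2 to the start of Pcdhga12 (96.7 kb, 50.3% exon) held 4 reads.

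Spans of the C-type gamma genes held most of the remaining gamma reads. Pcdhgc3 had 1, 3, 4, 0 and 2 reads in Fezf2+ve and 14, 1, 3, 1 and 1 in Fezf2-ve libraries 1 to 5. Pcdhgc4 and Pcdhgc5 differed from it by 1 read, in Fezf2-ve 1, which stood above every other library for these 3 genes. The stretch from the start of Pcdhgc5 through the gamma constant exons (22.3 kb, 34.0% exon) held 29 reads, 47.5% of the gamma reads. Of these, 10 were in Fezf2+ve and 19 in Fezf2-ve libraries. The processed transcript Gm38182 (chr18:37823879-37840382) and the antisense gene Gm29994 lie within this stretch, and their reads cannot be separated. Log2 fold changes were -0.23 (SE 1.38) for Pcdhgc3 and -0.21 (SE 1.37) for Pcdhgc4, both with an edgeR adjusted p of 0.999, and both turned positive without animal 1 (0.46 each) or animal 4 (0.03 and 0.05).

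A single row for each cluster, the one with the most reads, was also compared on log2(CPM + 1) within animals by an exact permutation test (two-sided, Benjamini-Hochberg over 3 clusters), whose smallest possible p with 5 animals is above 0.05. The alpha row by that rule was Pcdha7-g, which covers most of the locus and not the alpha cluster alone. For Pcdha7-g the mean difference of Fezf2+ve minus Fezf2-ve was 0.69 ± 1.57 (SD, n = 5, exact permutation p = 0.312, adjusted p = 0.750). This difference was 2.38 with the mean over all alpha genes and 1.67 with the sum over patterns. Pcdhb12 differed in animal 1 alone, so its test could give no p other than 1 and is not a comparison of types. Pcdhga1 gave -0.69 ± 1.73 (SD, n = 5, exact permutation p = 0.500, adjusted p = 0.750), and -0.13 and -0.27 with the same replacements in the gamma cluster. Pcdha1 in place of Pcdha7-g, chosen after the counts had been seen, gave 4.08 ± 3.66 (SD, n = 5, exact permutation p = 0.125). For Pcdha7-g and Pcdhga1 the SD between animals exceeded the difference, and for Pcdha1 it was of similar size.

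Genes that act on the clusters were examined as listed groups. Of 20 genes for promoter choice and chromatin, which include CTCF, cohesin and DNA methylation factors, 16 were tested, 7 with a log2 fold change above 0 and 9 below, and none had an unadjusted p under 0.05. Without the block edgeR called 1 of them, Stag1 (adjusted p = 0.0939), a cohesin subunit named after its values had been seen, with 180 of its 227 reads in Fezf2+ve 5, beside 276 of all 7409 genes (3.73%) in that fit.

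Signalling partners include the kinases and the WAVE complex that act downstream of clustered protocadherins. Of 22 such genes 18 were tested, 7 above 0 and 11 below, and 1 had an unadjusted p under 0.05, beside 290 of all 7409 tested genes. That gene, Kif5a, a neuronal kinesin that moves cargo along axons, had 11, 230, 5, 1 and 10 reads in Fezf2+ve and 4, 1, 3, 0 and 3 in Fezf2-ve libraries 1 to 5. Fezf2+ve was higher in 5 of 5 animals, and Fezf2+ve 2 held 85.8% of the reads. Its log2 fold change was 2.84 (SE 1.39, edgeR unadjusted p = 0.0451, adjusted p = 0.999), and without the block its adjusted p was 0.0987. Nlgn1, a postsynaptic adhesion protein, had the most reads of the list, 3260 of 5146 in Fezf2-ve 4. Of the 6 genes of shedding, by which ADAM10 and gamma-secretase cleave protocadherins, 3 were tested, 1 above 0 and 2 below, and none had an unadjusted p under 0.05. Psenen, a gamma-secretase subunit, had the most reads, with 9, 3, 6, 1 and 0 in Fezf2+ve and 18, 1, 14, 7 and 16 in Fezf2-ve libraries 1 to 5.

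Non-clustered protocadherins, which are encoded outside the 3 clusters, varied widely in reads, from 0 for Pcdh1, Pcdh12 and Pcdh18 to 5360 for Pcdh9. Of 12 such genes 6 were tested, 3 above 0 and 3 below, with none at an unadjusted p under 0.05. Pcdh9 had 24, 15, 635, 18 and 16 reads in Fezf2+ve and 3130, 21, 1427, 56 and 18 in Fezf2-ve libraries 1 to 5. A single library held most reads of some of these genes, with 93.3% of Pcdh7 in Fezf2+ve 5 and 97.4% of Pcdh15 in Fezf2-ve 4. Without the block, edgeR called Pcdh7 and Pcdh15 (Benjamini-Hochberg adjusted p = 0.0939 each), 2 of the 276 genes named above, and with the block neither. Pcdh1, Pcdh7, Pcdh12, Pcdh15 and Pcdh18 were named after their values had been seen.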

How the data were processed

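Read counts of 10 libraries, 5 of each IT-PN type, were used. After demultiplexing and trimming, the authors used TopHat2 2.1.1 for mapping to mm10 and bedtools 2.26.0 multiCov for counting on RefFlat genes (versions per the labels), and the deposited values are raw counts. Whether the counting used strand is not given in the sources used here, so antisense transcripts in the locus cannot be separated. ERCC counts were deposited in the same way. The authors also deposited a DESeq2 comparison (mean counts, fold changes on a log2 scale and their errors, a test statistic, p-values and adjusted p-values), which was not used.

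The filter asked for 10 CPM or more in 2 or more libraries. Genes that passed it were tested with edgeR 4.0.16 (R 4.3.3), with TMM normalization, a block for the animal and adjustment by Benjamini-Hochberg, and calls at an adjusted p of 0.1. The settings of that fit (default dispersion of glmQLFit, library sizes from the filtered genes, moderation not robust) were chosen among 8 combinations after their numbers of calls had been seen. They were picked because they came nearest to the counts of calls of an earlier analysis of these data. With the block every combination gave 0 calls, and Pcdha1 had an unadjusted p in edgeR from 0.0271 to 0.0495 (lowest adjusted p 0.999), beside 0.124 to 0.168 without any 1 of animals 2 to 5. Standard errors were calculated back from the unshrunken fold change and the F statistic. DESeq2 1.42.0, pandas 2.3.3, numpy 2.4.6, scipy 1.17.1 and matplotlib 3.10.9 (Python 3.11.15) were also used, and the fits were tested on simulated counts. The pass mark of that test, which is arbitrary, was lowered after a first run. In that test, at a spread like that of these libraries, the blocked edgeR fit called no gene, also none of those made to differ, so an absence of calls does not show an absence of change. At that spread most simulated calls of DESeq2 were of genes not made to differ. The simulated counts had the same spread for every gene and no effect of the animal, unlike real libraries. They therefore cannot settle how many of the DESeq2 calls here are wrong, and those calls remain uncertain.

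Members, gene lists and alternatives were chosen with earlier results of these data known. Named genes are the top row of each tested pattern, the 3 rows with the most reads per cluster, C-type genes and, in each list of other genes, the gene with the most reads and those with an unadjusted p under 0.05. Results of some genes are not reported here. The alternatives were no block, DESeq2, other scalings, filters and thresholds, merged rows, other cluster summaries, and leaving out each animal.

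Pairing comes from the sample records, which state that cells of an animal were sorted into both types, with the number in the titles. Deviations from the type means correlated by -0.03 to 0.10 (mean 0.03) within 5 animals. Over 20 pairs from different animals they correlated by -0.12 to 0.12 (mean -0.01). The second range contains the first, so these correlations do not set libraries of the same animal apart. RefSeq positions on GRCm38 were found for all 59 genes, and exons were taken from GENCODE on the same assembly. No sequence is printed.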

Additional observations from a re-analysis of the deposited data

Results flagged for a closer look

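In 70 sets of 5 values, each from 1 type, the highest or lowest library was compared with the rest by Dixon's ratio of gap to range, and 34 passed its 95% limit for 5 samples. Chance passes about 5% of sets of normally distributed values, a rate that does not hold for these low counts, in which 1 nonzero value among zeros always passes, as a single read does in 2 sets below, and for sets that share reads. Of these, 15 were sets of clustered protocadherins, with Pcdhac1 among them in both types, and 13 of the 15 were in Fezf2-ve 1. There Pcdha1 and Pcdha4 were at 131 CPM, Pcdha10 at 119, Pcdhac1 at 107, Pcdhac2 at 95.3 and Pcdhb12 at 41.7 CPM, with the other Fezf2-ve libraries at 0. Pcdhga2, Pcdhga6, Pcdhga7, Pcdhga10, Pcdhga12 and Pcdhgc3 were each at 83.4 CPM and Pcdhgc4 at 77.4 CPM in the same library, above the other Fezf2-ve libraries. These patterns share reads, so the 13 are not independent. Pcdhb20 stood apart in Fezf2+ve 1 (33.9 CPM), and Pcdhac1 at 0 CPM in Fezf2+ve 3 was below the rest.

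Among reads between neighbouring starts, the Pcdha12 stretch was at 11.9 CPM in Fezf2-ve 1, and the Pcdhga1 stretch at 8.47 CPM in Fezf2+ve 3 and 101 CPM in Fezf2-ve 3. Reads of Pcdha7-g outside the other clustered genes were at 130 CPM in Fezf2+ve 2.

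Of the other genes, Kif5a (2137 CPM) stood apart in Fezf2+ve 2. Nlgn1 did so in Fezf2+ve 3 (9689 CPM) and Fezf2-ve 4 (15423 CPM). Pcdh11x was at 1637 CPM in Fezf2+ve 5 and 8558 CPM in Fezf2-ve 1, Pcdh15 at 16299 CPM in Fezf2-ve 4, Pcdh7 at 8964 CPM in Fezf2+ve 5 and Pcdh9 at 5378 CPM in Fezf2+ve 3.

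Summed markers stood apart for excitatory neurons in Fezf2-ve 3 (3361 CPM), inhibitory neurons in Fezf2+ve 5 (4.92 CPM), astrocytes in Fezf2+ve 2 (7608 CPM) and Fezf2-ve 4 (3799 CPM), and oligodendrocytes in Fezf2+ve 2 (10451 CPM) and Fezf2-ve 1 (2025 CPM). The ERCC share was 46.7% in Fezf2+ve 1. Causes of these values were not tested.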

How the results depend on the processing

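How dispersion and library sizes are handled in edgeR was not settled beforehand. The setting used was picked after the calls of 8 combinations had been seen. With the block all 8 gave 0 calls over all genes, and DESeq2 gave 98. Without the block (pairing by animal) edgeR gave 276 calls. In the added combinations without the block, chosen after seeing the data, it gave 638 with estimateDisp, 277 with library sizes before the filter, 646 with both, 40 with robust moderation and estimateDisp under either library size, and 0 with robust moderation alone. No clustered protocadherin was called in any setting.

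Of 319 alternative fold changes of 17 named genes 281 kept their direction, 129 of 131 in the alpha and 152 of 188 in the gamma cluster. The 17 genes hold 14 distinct patterns, and nested genes share reads, so the 319 are not independent. Robust moderation by itself left each fold change as it was, so those rows add no check of direction. Without the block the log2 fold change was -0.18 for Pcdhac1, -0.36 for Pcdhac2, -0.00501 for Pcdhga2 and Pcdhga3, -0.0795 for Pcdhga6, -0.16 for Pcdhga7 and -0.25 for Pcdhga10, each above 0 with it. Pcdhga7 (0.07) gave -0.00585 with DESeq2 size factors and -0.0282 without a filter. Pcdhga10 (0.01) gave -0.0507 with DESeq2, -0.0703 with its size factors in edgeR, -0.0269 with library size only, -0.0977 without a filter, -0.0262 with the stricter filter and -0.00132 with library sizes before the filter, robust or not. Pcdhac2 did not pass the stricter filter.

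Leaving out any 1 of animals 2 to 5 gave 3.05 to 3.63 for Pcdha1, 0.85 to 2.07 for Pcdhac1 and 0.52 to 1.69 for Pcdhac2. Without animal 1 the Fezf2-ve libraries have no read of these 3 genes, so the size of that fold is set by the fit and is not given. Leaving out each animal gave 0.33 to 1.27 for Pcdha7-g and -1.24 to -0.15 for Pcdhga1. It gave -0.27 to 0.82 for Pcdhga2 and Pcdhga3, -0.27 to 0.77 for Pcdhga6, -0.28 to 0.71 for Pcdhga7, -0.35 to 0.63 for Pcdhga10 and -0.36 to 0.56 for Pcdhga12. It gave -0.68 to 0.46 for Pcdhgc3 and -0.65 to 0.46 for Pcdhgc4 and Pcdhgc5. The single-row read level ran from 0.34 to 1.30 for Pcdha7-g, the row taken for alpha although it covers most of the locus. That level ran from -1.28 to -0.07 for Pcdhga1 (gamma) and from -1.35 to 0 for Pcdhb12 (beta). Beta patterns numbered 0 among genes with at least 10 reads, and gamma patterns 3 when genes within 2 reads were merged. The cause was not tested.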
